A study of Mus musculus with 4 samples.

Results

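Usp32 encodes ubiquitin-specific protease 32, a large enzyme that removes ubiquitin from other proteins. Of the genes with a symbol, Usp32 was among those with the most listed peaks of the splicing factors SRSF1 and SRSF2 in mouse embryonic fibroblasts (MEFs). Its peaks were those whose name carries the RefSeq accession of Usp32, which is a single transcript on the minus strand of chromosome 11. They were 81 of 107319 peaks in all, with 34 of 50983 in the SRSF1 list and 47 of 56336 in the SRSF2 list. Usp32 was chosen by these peak numbers, that is by values of the same lists, so every value below is a description and none was tested.

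SR proteins bind short stretches of pre-mRNA, often within exons, and help the splicing machinery to choose exons. Members of the family can bind the same or neighbouring sites and either help or hinder each other there. Ubiquitin-specific proteases are cysteine proteases that trim or remove ubiquitin chains and so alter the fate of their substrates. Human USP32 is found at the Golgi and on endosomes, and in human cells it acts on the late endosome GTPase RAB7 and on LAMTOR1, a subunit of the Ragulator complex that holds the kinase mTORC1 on lysosomes.

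The study asked how SR proteins cooperate and compete in splicing, by CLIP-seq, in which protein and RNA are crosslinked in cells, the protein is precipitated and the RNA bound to it is sequenced. The SRSF1 library came from SRSF1 tet-repressible MEFs and the SRSF2 library from SRSF2 tet-repressible MEFs. Both lines were kept without tetracycline, and the proteins were precipitated through an HA tag. With 1 library per protein, each from its own line, the protein and the line cannot be told apart and no value has a replicate error. A pair of further SRSF1 libraries, from siRNA-treated cells, was not analysed here. Intervals below are exact 95% binomial intervals for shares and order-statistic intervals for medians. They cover counting error only, and peaks of 1 transcript are not independent of each other.

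Genes with a symbol held 15.9% of all peaks, and most other peaks lay in units without a gene name, so a gene without a value here may still be bound. Of 15 fibroblast marker genes, 3 had named peaks, which were the matrix genes Col1a1 (55 SRSF1 and 52 SRSF2 peaks), Col6a1 (24 of each) and Postn (13 and 2). The lists of macrophage, endothelial and neuronal markers had 0 members with a named peak, and among epithelial markers Krt19 had 1 SRSF1 peak. The share of all genes with a named peak was not computed, so these marker counts are not read as a result about cell type.

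Usp32 ranked 9 of 2155 genes with a symbol by the number of peaks of both proteins, between Lamc1 and Smc5 with 82 peaks each and Xpo1 with 78. SRSF1 supplied 42.0% of its peaks (31.1 to 53.5), beside 47.5% over all peaks and 47.6% over chromosome 11. The interval of Usp32 thus included the share over all peaks, whereas that of 4.92% of the 528 genes with at least 10 peaks left it out. The libraries were made from bulk cultures, so more transcript, more cells that carry it and more binding per transcript cannot be told apart in a number of peaks.

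The peaks of Usp32 ran over 154.7 kb, from 84953286 at the upstream end to 84798540 at the downstream end (mm9, chromosome 11, minus strand). No exon, intron, untranslated region or sequence was assigned to any of them, because an mm9 genome and annotation were not used here. Upstream and downstream refer to the order of the peaks in the direction of transcription. Inside this stretch there were 0 peaks of any other unit on the minus strand and 0 peaks on the plus strand.

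**Figure D1:**
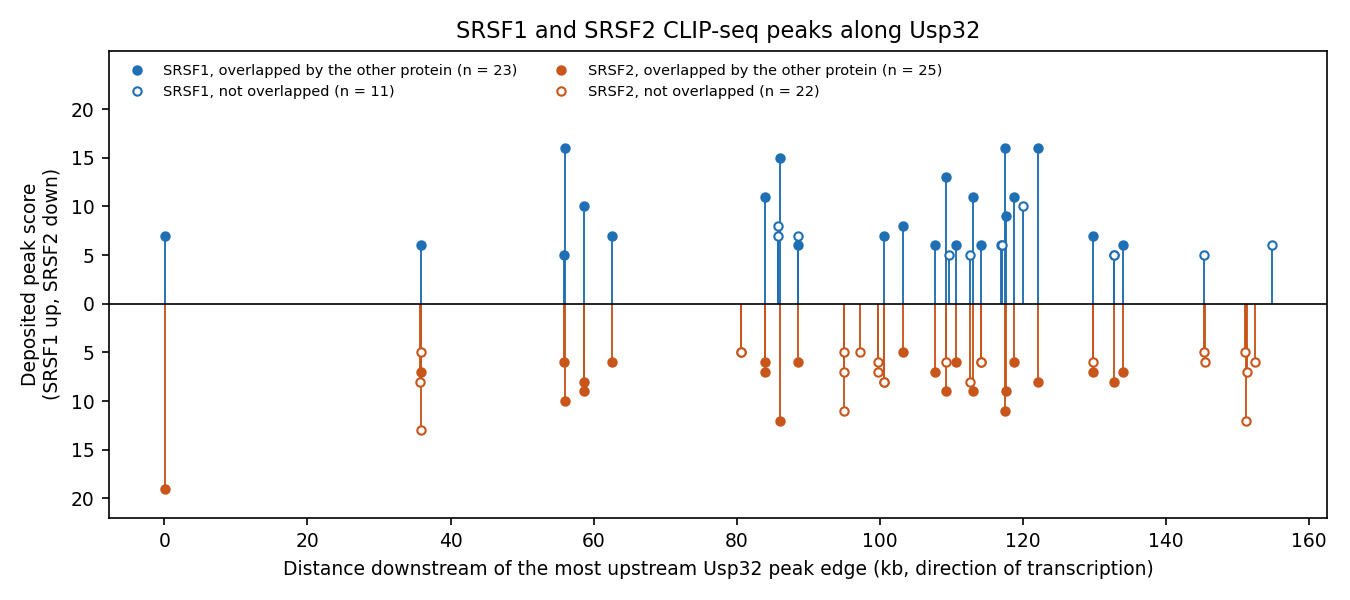
Each stem is 1 peak of Usp32, placed by its midpoint in kb downstream of the most upstream peak edge, with SRSF1 drawn upward and SRSF2 downward and the stem length giving the deposited score, which has no stated unit. Filled heads mark peaks that share at least 1 nt with a peak of the other protein (23 of 34 SRSF1 and 25 of 47 SRSF2 peaks). The upstream end is sparse, and peaks of both proteins crowd in the downstream 50% of the span.

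Both proteins had most of their Usp32 peaks in the downstream part of this stretch. Of the SRSF1 peaks 28 lay in the downstream 50% and 6 in the upstream 50% (17.6% upstream, 6.76 to 34.5), and of the SRSF2 peaks 37 and 10 (21.3% upstream, 10.7 to 35.7). The median peak lay 110186 nt from the upstream end for SRSF1 (interval 88533 to 117515) and 100568 nt for SRSF2 (94997 to 112966). These intervals overlap. The SRSF2 share upstream was 13.9% with peaks closer than 20 nt merged and 33.3% with peaks of at least the median score of their list. Among the 160 genes with at least 10 peaks of each protein, the median share upstream was 42.9% for SRSF1 and 41.7% for SRSF2, and 26 of them had a lower SRSF1 share and 27 a lower SRSF2 share than Usp32. Without gene boundaries on this build, these shares depend on where the outermost peaks fell. The upstream end was set by 1 isolated site with 1 peak of each protein, 35698 nt from the next site. Counted from that next site, the upstream 50% would reach further downstream and take in more of the peaks of both proteins. The low shares upstream, and the counts of genes below Usp32, thus rest in part on that 1 isolated site. The shares without it were not computed.

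**Figure D2:**
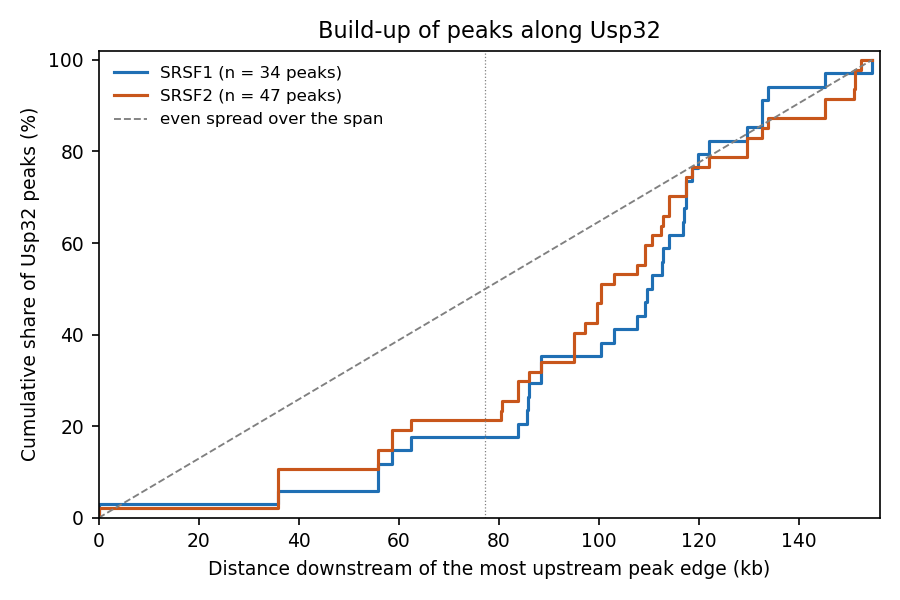
The cumulative share of Usp32 peaks (y axis, percent) is drawn against the distance from the upstream end (x axis, kb), with 34 SRSF1 and 47 SRSF2 peaks; the dashed line is an even spread and the dotted line the middle of the span. Apart from the single peak of each at the upstream end, both curves lie below the dashed line through the upstream 100 kb, where 12 SRSF1 and 22 SRSF2 peaks are found. After that both rise towards it, and at 125 kb the SRSF1 curve, with 28 of its 34 peaks, lies above it.

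With the span cut into 10 equal parts, the second from the upstream end had 0 peaks and the eighth had most, with 13 SRSF1 and 11 SRSF2 peaks. The seventh had 3 SRSF1 and 10 SRSF2 peaks, and the last had 2 and 6. The densest 5 kb window of SRSF1 held 7 peaks (84835708 to 84840680) and that of SRSF2 also held 7 (84839110 to 84844065). Counting both proteins, the densest window was the latter, with 6 SRSF1 and 7 SRSF2 peaks. The eighth part was thus the most crowded one for both lists, though for SRSF2 with 11 peaks beside 10 in the seventh. The densest windows of SRSF1 and SRSF2 overlapped only in part, from 84839110 to 84840680.

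The long gaps between peaks also fell at the same places in both lists. The widest gap of SRSF1 ran from 84917489 to 84953243 (35753 nt without a peak) and that of SRSF2 from 84917526 to 84953225 (35698 nt). Further gaps of more than 10000 nt common to both lay between 84897379 and about 84917414 (20090 nt for SRSF1 and 20034 for SRSF2), upstream of 84869353 for SRSF1 (21418 nt) and of 84872747 for SRSF2 (18026 nt) and between about 84808047 and 84819332 (11346 and 11284 nt). SRSF1 had 1 gap of this size that SRSF2 lacked, from 84852771 to 84864729 (11957 nt), in which SRSF2 had 6 peaks. Gaps between listed peaks do not show that the RNA there was unbound.

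Neighbouring peaks of a list mostly stood well apart, with some tight runs. The median distance between neighbouring midpoints was 1804 nt for SRSF1 (972 to 2801, 33 distances) and 1161 nt for SRSF2 (131 to 2433, 46 distances). Distances of at most 100 nt made up 5 of 33 for SRSF1 and 15 of 46 for SRSF2. The intervals of the medians overlap, and a difference in spacing between the lists was not tested. For SRSF2 the median became 2252 nt with peaks closer than 20 nt merged and 4552 nt with peaks of at least the median score. The medians over the 160 genes were 757 and 639 nt. Usp32 had 0.523 peaks per kb of its span, both proteins together, beside a median of 0.913 for these genes.

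Joined over gaps of up to 100 nt, a distance chosen after seeing the data, the 81 peaks formed 36 sites of 10 to 144 nt (median 47 nt). Of these, 23 had both proteins (63.9%, 46.2 to 79.2), 8 had SRSF2 alone and 5 had SRSF1 alone. Among the 160 genes the median share of sites with both was 47.2%, and 129 of them had a lower share than Usp32. In 21 of the 23 the proteins overlapped, and in the other 2 they lay side by side. Sites with more than 2 peaks numbered 13 and held 43 of the 81 peaks.

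Peak overlap in Usp32 was above that of the whole lists. An SRSF2 peak shared at least 1 nt with 23 of 34 SRSF1 peaks (67.6%, 49.5 to 82.6), beside 38.7% of all SRSF1 peaks. An SRSF1 peak did so with 25 of 47 SRSF2 peaks (53.2%, 38.1 to 67.9), beside 35.2% of all SRSF2 peaks. Both intervals lie above the shares of the whole lists. Genes with many peaks overlapped more in general: over the 160 genes with at least 10 peaks of each protein the shares were 50.7% for SRSF1 and 46.8% for SRSF2, which the intervals of Usp32 include. Of these genes, 20 had a higher SRSF1 share than Usp32 and 57 a higher SRSF2 share. The overlap of Usp32 is thus not set apart from that of other genes with many peaks.

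**Figure D3:**
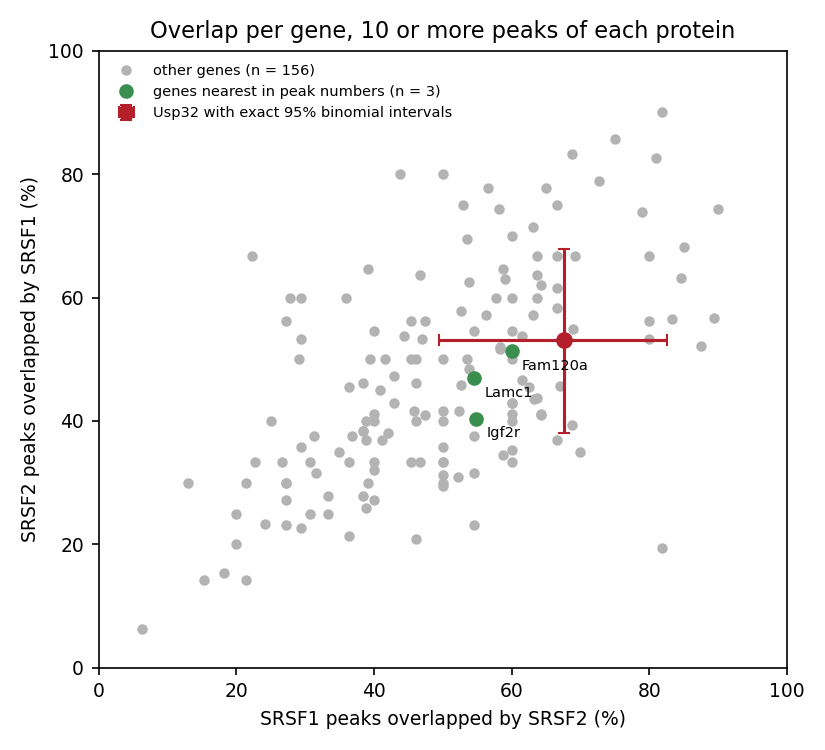
Each point is 1 of 160 genes with at least 10 peaks of each protein, placed by the share of its SRSF1 peaks overlapped by SRSF2 (x axis, percent) and of its SRSF2 peaks overlapped by SRSF1 (y axis, percent). Usp32 (67.6% and 53.2%) is drawn with its exact 95% binomial intervals and lies within the cloud, to the right of Lamc1, Igf2r and Fam120a, the genes nearest to it in peak numbers.

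At like scores, overlap in Usp32 was also above that of the whole list in all 6 classes compared. The interval left out the list's share in 3 of them, only just so for SRSF2 scores from 4 to 6. The classes were not set beside the other genes with many peaks, which also overlapped more than the whole lists. The score of its SRSF1 peaks ran from 5 to 16 with a median of 7 (6 to 9), and that of its SRSF2 peaks from 5 to 19 with a median of 7 (6 to 8), while the median of each whole list was 8. Among SRSF1 peaks with scores from 4 to 6, 8 of 15 in Usp32 were overlapped (53.3%, 26.6 to 78.7), beside 22.6% in the whole list. At scores from 7 to 9 the shares were 66.7% (29.9 to 92.5, 9 peaks) and 35.7%, and from 10 to 20 they were 90.0% (55.5 to 99.7, 10 peaks) and 56.4%. For SRSF2 the same classes gave 38.1% (18.1 to 61.6), 68.4% (43.4 to 87.4) and 57.1% (18.4 to 90.1) in Usp32, against 18.0%, 29.6% and 48.2%. Usp32 peaks were somewhat wider, with medians of 22.5 nt for SRSF1 and 21 nt for SRSF2 beside 19 nt in both lists, and wider peaks meet others more easily. The part of width in the overlap was not tested.

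Within Usp32 the overlapped peaks had median scores of 7 (6 to 11) for SRSF1 and 7 (6 to 9) for SRSF2. The peaks without overlap had medians of 6 (5 to 8) for both proteins. These intervals overlap, and a difference in score was not tested. In the whole lists the medians were 9 and 7 for SRSF1, and 10 and 8 for SRSF2.

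The overlapping peaks formed 25 pairs, because 2 SRSF1 peaks each met 2 SRSF2 peaks. In 20 pairs the midpoints were at most 10 nt apart (80.0%, 59.3 to 93.2), beside 83.9% of all 20654 pairs in the series, and the median distance was 2.5 nt, beside 3.5 nt. In 16 pairs the narrower peak lay wholly inside the wider one. A total of 6 pairs shared 1 edge to the nucleotide (24.0%, 9.36 to 45.1), beside 24.8% of all pairs, and 0 pairs shared both. Alignment within the pairs was thus close to that of the series as a whole. Across the 25 pairs the scores correlated with a Spearman rho of 0.50 and a Pearson r of 0.31, beside 0.62 and 0.90 over all 20654 pairs of the series. This is a description over points that share a transcript and its RNA level in Usp32. Scores of overlapped SRSF1 and SRSF2 peaks reached 354 and 416 over the series, but 16 and 19 in Usp32. The Pearson values thus cover unlike score ranges and are not directly comparable.

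**Figure D4:**
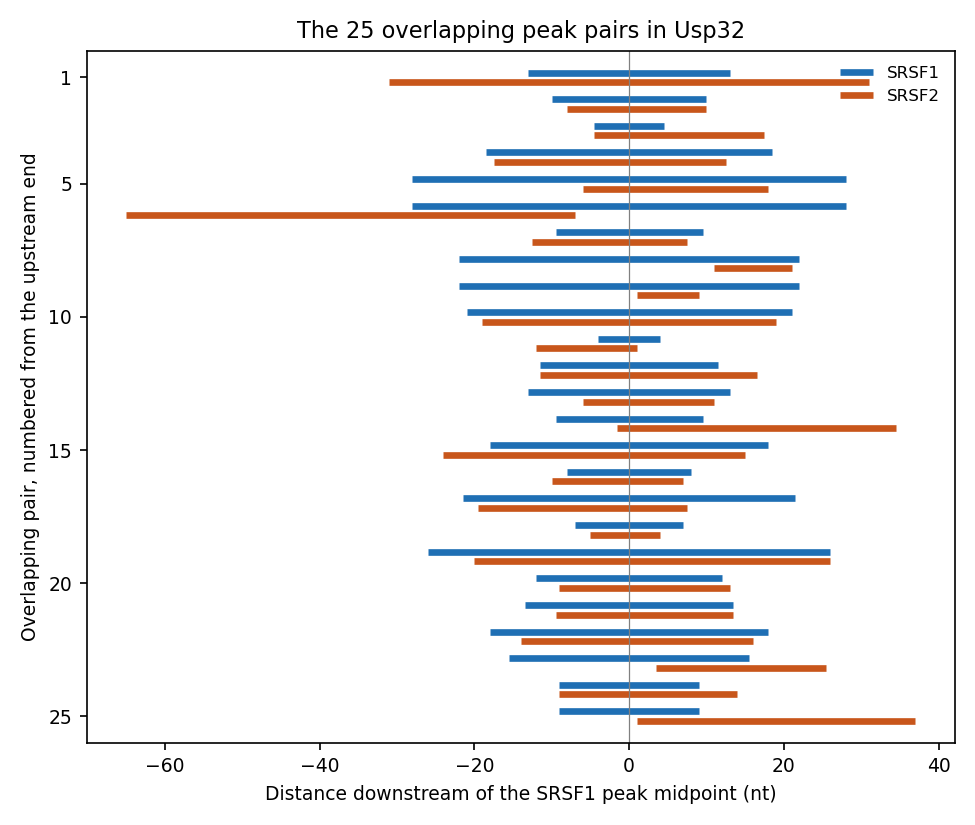
Each row is 1 of the 25 overlapping pairs, from upstream (1) to downstream (25), with bars for the extent of the SRSF1 and the SRSF2 peak in nt relative to the SRSF1 midpoint, downstream to the right. Most bars are nearly concentric, with midpoints within 10 nt in 20 pairs; pair 6 is offset the most, with its SRSF2 midpoint 36 nt upstream.

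Counting near neighbours as well, 27 of 34 SRSF1 peaks had an SRSF2 midpoint within 50 nt (79.4%) and 31 within 500 nt (91.2%), beside 48.6% and 64.4% over the whole list. Of the SRSF2 peaks, 33 of 47 had an SRSF1 midpoint within 50 nt (70.2%) and 35 within 500 nt (74.5%), beside 45.5% and 62.5%. Genes with many peaks had higher shares in general. Over the 160 genes with at least 10 peaks of each protein they were 63.9% and 82.1% for SRSF1. For SRSF2 they were 61.0% and 80.2%, so the Usp32 share within 500 nt was below that of these genes. From peak to closest peak of the other protein, the median distance was 5.75 nt from SRSF1 (2.5 to 20.5) and 17.5 nt from SRSF2 (5.5 to 42.5), beside 57.5 and 78.5 nt over the lists. Over the peaks of the 160 genes the medians were 17.5 and 24.5 nt. With peaks closer than 20 nt merged, the median from SRSF1 was 16.25 nt, and with peaks of at least the median score the median from SRSF2 was 220.8 nt (18 peaks). Among the 160 genes, 20 had a shorter median from SRSF1 and 58 from SRSF2. The count of SRSF2 peaks was also 35 within 100 nt, so the other 12 all lay more than 500 nt from an SRSF1 midpoint.

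At the upstream end, both proteins met at 1 isolated site (84953225 to 84953286). SRSF2 had here its highest-scoring peak in Usp32, 62 nt wide with a score of 19. The SRSF1 peak at this place was 26 nt wide, had a score of 7 and lay wholly within it, with the same midpoint. The next site downstream, 84917414 to 84917526, had 1 SRSF1 peak (score 6) and a run of 4 SRSF2 peaks (scores 8, 7, 5 and 13 from upstream). The SRSF1 peak shared its downstream edge to the nucleotide with the SRSF2 peak of score 7, while the SRSF2 peak of score 13 was not overlapped and lay 49 nt away by midpoint. These sites carried the highest and the second highest SRSF2 scores of the gene. Their SRSF1 scores of 7 and 6 were at and just below the SRSF1 median of 7 in Usp32.

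The following 3 sites, between 84890772 and 84897379, had both proteins throughout. One of the highest SRSF1 peaks (84897306 to 84897342, score 16) enclosed the SRSF2 peak of score 10 at 84897312 to 84897341. Close to it, an SRSF1 peak of score 5 and an SRSF2 peak of score 6 shared their upstream edge, 84897379. At 84894635 to 84894727 a broad SRSF1 peak (56 nt, score 10) met SRSF2 peaks of scores 8 and 9, the latter 58 nt wide and reaching further upstream. The site at 84890772 to 84890793 had scores of 7 for SRSF1 and 6 for SRSF2. All SRSF1 peaks and all SRSF2 peaks of these 3 sites overlapped.

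After a gap of 18024 nt came a stretch in which the proteins parted in places. SRSF2 alone had a pair of low peaks at 84872631 to 84872747 (score 5 each). The site at 84869310 to 84869353 had an SRSF1 peak of score 11 over SRSF2 peaks of scores 7 and 6. SRSF1 alone had peaks of scores 7 and 8 at 84867447 to 84867542, and 235 nt downstream lay a pair of high scores in both lists. There SRSF1 (84867170 to 84867211, score 15) and SRSF2 (84867172 to 84867209, score 12) had the same midpoint. The smaller of its 2 scores was the highest among the 25 pairs. At 84864729 to 84864765 the scores were 7 and 6 for SRSF1 and 6 for SRSF2.

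A run of 3 neighbouring sites then had SRSF2 peaks and no SRSF1 peak. They lay at 84858230 to 84858310 (scores 11, 5 and 7), 84856014 to 84856023 (score 5) and 84853501 to 84853592 (scores 7 and 6). The nearest SRSF1 edge was 5459, 3243 and 730 nt away, respectively. This run holds the 6 SRSF2 peaks inside the long SRSF1 gap. Peak numbers in the names follow the coordinate in all 7594 genic units of the SRSF1 list and all 7447 of the SRSF2 list, so that a missing number shows roughly where a numbered peak was not listed. No SRSF1 number was missing across these 3 sites.

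The crowded stretch from 84831215 to 84852771 held 14 sites, of which 11 had both proteins and 3 had SRSF1 alone. Among the shared ones were the SRSF1 peaks of score 16 at 84831215 to 84831250, with an SRSF2 peak of score 8 inside it, and at 84835746 to 84835797. The latter shared its downstream edge with the SRSF2 peak of score 11 at 84835746 to 84835791 and was accompanied by a second pair of score 9 in both lists at 84835707 to 84835731. Further shared sites lay at 84844024 to 84844059 for SRSF1 (score 13, SRSF2 score 9), 84840293 to 84840335 (scores 11 and 9) and 84834600 to 84834626 (scores 11 and 6). The site at 84840674 to 84840729 had the proteins side by side without overlap, 42.5 nt apart by midpoint (scores 5 and 8). SRSF1 stood alone at 84843581 to 84843592 (score 5), 84836246 to 84836369 (scores 6 and 6) and 84833288 to 84833309 (score 10), with the nearest SRSF2 edge 402, 455 and 1291 nt away.

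Downstream of it, 3 shared sites between 84819332 and 84823575 had scores from 5 to 7 for SRSF1 and from 6 to 8 for SRSF2. The pair at 84820505 to 84820522 had the same upstream edge in both lists. At 84807904 to 84808047, the longest site, an SRSF1 peak of score 5 lay between SRSF2 peaks of scores 5 and 6 without touching them. In the last stretch the proteins did not meet. SRSF2 had peaks at 84802215 to 84802235 (score 5), 84802039 to 84802086 (score 12, 48 nt wide), 84801913 to 84801931 (score 7) and 84800836 to 84800856 (score 6), and SRSF1 had the outermost peak, 84798540 to 84798553 (score 6). Of the 10 equal parts of the span, this last one and the empty second one had 0 overlapped peaks.

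Ordered by score, the leading SRSF1 peaks were all shared and the leading SRSF2 peaks were in part unshared. The 5 highest SRSF1 scores (16, 16, 16, 15 and 13) all belonged to overlapped peaks. Among the SRSF2 peaks, those with scores of 19, 12 (at 84867172) and 11 (at 84835746) were overlapped. Those with scores of 13 (at 84917414), 12 (at 84802039) and 11 (at 84858269) were not, and the last of these were 3516 and 5530 nt from the nearest SRSF1 midpoint. No source used here says what the scores measure, so a higher score in 1 list than in the other is not read as stronger binding.

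Some of the sites with 1 protein may have had a partner that was numbered but not listed. In Usp32, 11 of 45 SRSF1 numbers (24.4%) and 8 of 55 SRSF2 numbers (14.5%) had no listed peak, beside 17.6% and 19.9% over all genic units. For 4 of the 5 sites with SRSF1 alone no SRSF2 number was missing at that place, and the exception was the outermost one, where SRSF2 numbers 1 and 2 could lie. For 3 of the 8 sites with SRSF2 alone no SRSF1 number was missing. The other 5 could hold SRSF1 number 37, in the wide gap upstream of 84869353, or number 2, between 84798553 and 84808001. The 4 sites at 84800836 to 84802235 would have to share that 1 number.

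The genes nearest to Usp32 in their numbers of SRSF1 and SRSF2 peaks were Lamc1, a laminin chain of basement membranes (33 and 49 peaks), Igf2r, the receptor that carries mannose-6-phosphate tagged enzymes to endosomes (31 and 52), and Fam120a, which encodes an RNA-binding protein (30 and 39). Likeness was the distance of the log2(peaks + 1) values over the 2 lists, 0.072, 0.19 and 0.32. Their SRSF1 peaks were overlapped in 54.5% (36.4 to 71.9), 54.8% (36.0 to 72.7) and 60.0% (40.6 to 77.3), and their SRSF2 peaks in 46.9%, 40.4% and 51.3%. The values of Usp32 were higher, but the intervals overlap widely, and the differences were not tested. Their peaks spanned 113358, 65618 and 87617 nt, so the peaks of Usp32 were spread over the longest stretch of the 4. All 4 had less than 50% of the peaks of either protein in the upstream 50% of the span, with 9.09% of SRSF1 and 10.2% of SRSF2 peaks in Lamc1.

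Usp32 held 81 of the 148 named peaks of its enzyme family. Only units with a RefSeq name count here, and genes with a symbol held 15.9% of all peaks. The share of all genes with a named peak was not computed. Counts of members with such a peak, here and in the other lists, are thus not read as a result. Of the 49 other ubiquitin-specific proteases in the list, 9 had a named peak, with 35 SRSF1 and 32 SRSF2 peaks together (SRSF1 share 52.2%, 39.7 to 64.6), beside 47.2% over all genes with a symbol. They were led by Usp10, which acts on p53 (9 and 6 peaks), Usp5, which disassembles free ubiquitin chains (7 of each), and Usp12 (4 and 7). Usp39, a protein of the spliceosome without protease activity, had 6 and 2, Usp31 4 and 3, and Usp1, which removes ubiquitin from FANCD2, 2 and 4. Overlap in these 9 genes reached 7 of 35 SRSF1 peaks (interval 8.44% to 36.9%) and 7 of 32 SRSF2 peaks (21.9%, 9.28 to 40.0). The interval for SRSF1 does not meet that of Usp32, while the one for SRSF2 does, and these genes have far fewer peaks each (median 7).

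**Figure D5:**
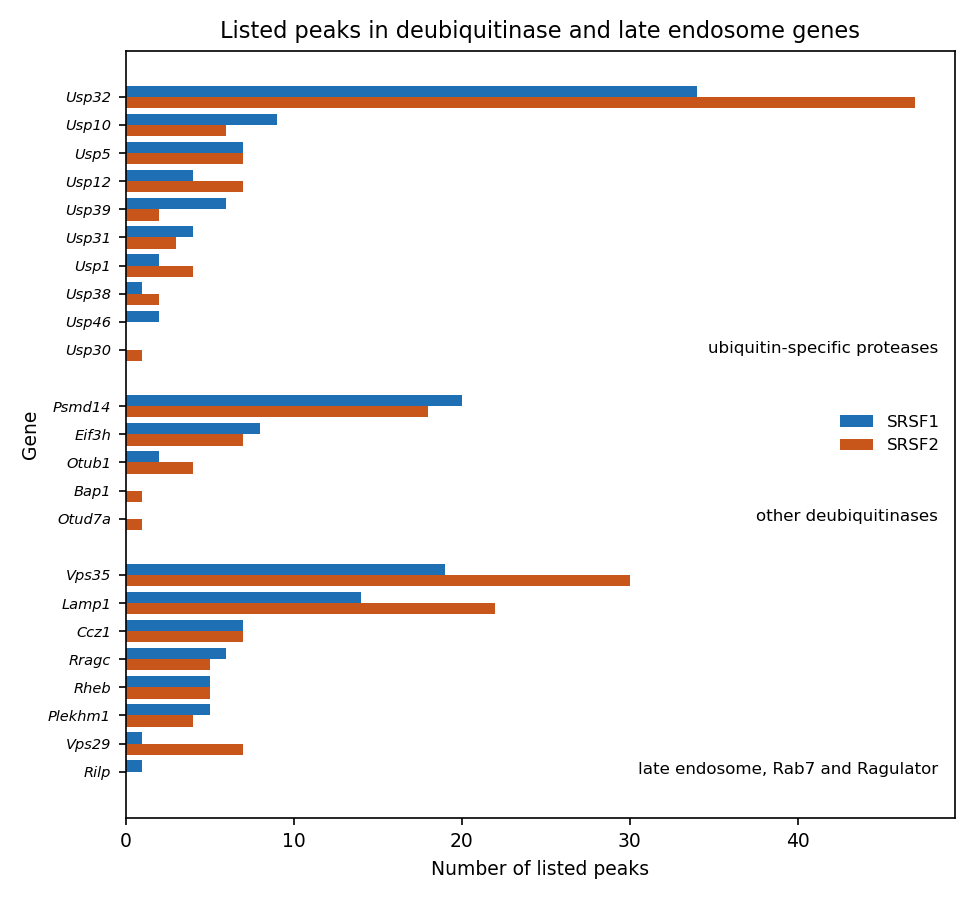
Bars give the number of listed SRSF1 and SRSF2 peaks (x axis) for each gene with a named peak among ubiquitin-specific proteases, other deubiquitinases and late endosome genes. Usp32 (34 and 47) is followed by Vps35 (19 and 30), Psmd14 (20 and 18) and Lamp1 (14 and 22); genes of the lists without a named peak are not drawn.

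Of the 34 genes in the list of other deubiquitinases and proteins of related fold, 5 had a named peak. Psmd14, the deubiquitinase of the proteasome lid, had 20 SRSF1 and 18 SRSF2 peaks, Eif3h, a translation initiation factor subunit of a related protein fold, had 8 and 7, and Otub1 had 2 and 4. The list as a whole had an SRSF1 share of 49.2% (36.1 to 62.3). Of 30 genes for the late endosome, Rab7 and Ragulator, 8 had a named peak, with a share of 42.0% (33.7 to 50.7). Vps35, a retromer subunit that recycles cargo from endosomes, led with 19 and 30 peaks, followed by the lysosomal membrane protein gene Lamp1 with 14 and 22 and by Ccz1, part of the complex that activates Rab7, with 7 of each. Rab7 and Lamtor1 themselves had no named unit with a peak and have no value here. The intervals of these lists include the 47.2% of all genes with a symbol.

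Within 1 Mb of Usp32, 4 genes with a symbol had peaks, and all had fewer. Appbp2, the next one upstream on the same strand at 51857 nt, had 8 SRSF1 and 10 SRSF2 peaks, of which 4 of each overlapped. Znhit3, 68729 nt downstream, had 1 of each, Tada2a, a subunit of histone acetyltransferase complexes, had 6 and 14, and Brip1, a DNA repair helicase, had 15 and 21, some of them beyond that distance. In addition, 10 units without a symbol had 68 and 78 peaks and 4 nongenic ones had 6 and 12. One of the latter was a plus-strand SRSF1 peak of score 4, 793 nt beyond the upstream end of Usp32 (84954079 to 84954091).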

How the data were processed

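For each protein the authors deposited 1 list of peaks with position, strand, name and score. The build was mm9 (per the submitters' processing notes) and positions are printed 1-based. No source used here gives the aligner, peak caller, threshold or read depth. The score deposited by the authors is a whole number of at least 4 of unstated meaning, used within a list, except to rank overlapping pairs by the smaller score and to correlate scores over pairs. Peak numbers are not a depth.

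Usp32 peaks were found through the RefSeq accession in the peak name. Symbols came from a RefSeq table of GRCm38.p6, used for names only, which matched 2155 of 2169 accessions. Overlap meant at least 1 nt on the same strand, and distances are between midpoints. Overlap counts were checked against bedtools 2.31.1, and functions tested on simulated data (Python 3.11.15, scipy 1.17.1). No test between proteins was possible with 1 library each.

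The gene, the lists and the comparisons were chosen with earlier results of these data known. Named by rule were the 3 genes nearest in peak numbers, family members with at least 5 peaks, the 3 members with most peaks of each other list, genes within 1 Mb, and in Usp32 the 5 highest scores of each protein (ties included) and the pairs with the highest smaller scores. Lamc1, Smc5 and Xpo1 were named by rank after their values were seen. Alternatives covered overlap definition, peak width, score, merging, membership and distance.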

Additional observations from a re-analysis of the deposited data

How the results depend on the processing

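No paired analysis was possible because each protein has 1 library. Taking all same-strand peaks in the span changed nothing in 11 values, because no other unit has a peak there. Of the other 46 alternative values, 39 stayed within the interval of the reported value and 7 did not. With midpoints within 50 nt, or every peak set to 50 nt, 70.2% of SRSF2 peaks in Usp32 counted as shared in place of 53.2%. From edge to edge, the median distance to the other protein was 0 nt from SRSF1 and 0 nt from SRSF2, since most peaks overlap. With peaks of at least the median score of their list, 18 SRSF2 peaks were left, the median distance to SRSF1 became 220.8 nt (3 to 10722) and the median SRSF2 spacing 4552 nt, from fewer peaks. In that subset the SRSF1 share over the other ubiquitin-specific proteases was 38.9% of 18 peaks in place of 52.2%, while leaving out each of these 9 genes in turn gave 49.1% to 55.4%. Merging peaks closer than 20 nt gave SRSF2 a median spacing of 2252 nt in place of 1161 and a median distance from SRSF1 to SRSF2 of 16.25 nt in place of 5.75, both within wide intervals. The SRSF2 share upstream moved from 21.3% to 13.9% with merging and to 33.3% with peaks of at least the median score. Sites with both proteins were 57.5% with gaps of up to 50 nt and 73.3% with gaps of up to 500 nt, settings chosen after seeing the data. Unknown depth and 34 and 47 peaks limit the precision of every share.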
